A study of Mus musculus with 8 samples.

Results

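The genes of the proteasome were read in ribosome-bound RNA from the nucleus accumbens and the dorsal striatum of old mice. Members were all gene rows whose symbol begins with Psma, Psmb, Psmc, Psmd, Psme, Psmf or Psmg followed by a number, which gave 50 of 32532 gene rows. By role they are 14 constitutive subunits of the 20S core, 17 subunits of the 19S cap, 3 immunoproteasome subunits, 2 core subunits restricted to other tissues, 5 activators and inhibitors of the core, 4 assembly chaperones of the core and 3 of the cap, and 2 genes that only share the name. The last 2 are Psmc3ip, a cofactor of meiotic recombination, and Psme2b, a near-copy of Psme2. The rule reads the gene symbol and no measured value.

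The libraries came from 2 dissected regions, the nucleus accumbens (4 libraries) and the dorsal striatum (4 libraries). All mice carried the same transgene, Drd1-EGFP/Rpl10a of the line CP73, were untreated, and were older than 20 months. The transgene is made for translating ribosome affinity purification: the Drd1 promoter drives ribosomal protein L10a with a green fluorescent tag, and polysomes of the tagged cells are pulled down with antibodies against that tag. Values are therefore ribosome-bound RNA and not protein, and no unpurified tissue RNA was analysed here. The labels give the number of each replicate but not whether it was 1 mouse or a pool, nor whether the regions came from the same mice. The p-values accordingly measure the spread between these libraries.

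The proteasome is the protease that destroys proteins tagged with ubiquitin. Its 20S core is a barrel of alpha rings around beta rings, and 3 beta subunits carry the active sites. The 19S cap binds the ubiquitin chain, removes it and uses ATP to unfold and feed in the protein, while other activators open the core without ATP. In neurons proteasomes also act at synapses, and a loss of their activity with age has been described in brain, which is background and not a result of these data.

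Counts assigned to genes were 10831937 to 12639641 per accumbens library and 7466970 to 10363145 per dorsal striatum library, and 3 reads correspond to 0.237 to 0.415 CPM, the read count scaled to a common library total. Limits from counts cover counting error only. Proteasome genes took 0.245% of gene counts in accumbens and 0.237% in dorsal striatum. Drd1, the gene whose promoter drives the transgene, averaged 435 ± 86.5 CPM in accumbens and 605 ± 60.9 CPM in dorsal striatum, so it was present in both regions. All 9 direct-pathway markers were tested with edgeR, as described below, and their median log2 fold change, accumbens over dorsal striatum, was -0.36. They went both ways: 1 was called higher in accumbens (Pdyn, 1.02) and 2 lower (Ebf1, -1.25, and Eya1, -0.55). Summed indirect-pathway markers were 667 to 945 CPM in accumbens and 252 to 355 CPM in dorsal striatum. All 7 had a log2 fold change above 0 (median 1.11), and 3 of them (Drd2, Adora2a and Penk) were called higher in accumbens. Summed astrocyte markers were 258 to 703 CPM in accumbens and 199 to 375 CPM in dorsal striatum. Of 7 tested (9 listed), 6 lay above 0 and 1, Slc1a2, was called higher. Oligodendrocyte markers summed to 129 to 331 CPM in accumbens and 123 to 198 CPM in dorsal striatum.

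No proteasome gene passed the test for a difference between accumbens and dorsal striatum. Of the 50 members, 46 had enough reads to be tested, and edgeR's quasi-likelihood test called 0 of 46 at a Benjamini-Hochberg adjusted p under 0.05. Among all 12467 tested genes it called 3.72%, with 1.60% higher and 2.12% lower in accumbens. DESeq2 and limma-voom also called 0. The smallest adjusted p of a member was 0.298, and 1 member, Psmg1, had an unadjusted p under 0.05 in each of these 3 tests, against 14.8% of all genes in edgeR. That edgeR count was 5 without accumbens 1 (1816 of 12676 for all tested genes) and 3 without accumbens 2 (1854 of 12805). It was 2 without accumbens 4 (1763 of 12658), without dorsal striatum 3 (1673 of 12888) and without accumbens 2 and dorsal striatum 3 together (1725 of 12684). No low-count filter (2766 of 19169) and removal of length and GC trends (1805 of 11964) also gave 2. The count was 0 without accumbens 3 (1727 of 12730), without dorsal striatum 4 (1629 of 12910) or with a covariate of glial marker level (1299 of 12467). In bulk RNA, fewer cells of a type and less RNA per cell cannot be told apart.

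The data also bounded how large a difference could be. For 36 of the 46 tested members the 95% interval of the fold change lay wholly within 2-fold in either direction, against 48.6% of all tested genes. Proteasome genes are more abundant than most (median 45.1 CPM, against 20.3 CPM for all tested genes), and intervals are narrower for abundant genes. With genes averaging under 5 CPM left out, the count was 36 of 42 members, against 61.8% of all genes at that level. The median log2 fold change, accumbens over dorsal striatum, was 0.025 for the members and 0.018 for all tested genes, and 26 members lay above 0 and 20 below (51.8% of all tested genes lay above 0). The median absolute log2 fold change was 0.20 for the members and 0.25 for all genes averaging at least 5 CPM. Log2 fold changes ran from -0.76 for Psme2 to 1.12 for Psmg1, and 44 of 46 were within 0.5 of 0.

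In 0 of 46 members did the accumbens and dorsal striatum libraries separate without overlap, against 9.69% of all tested genes. That count depended on single libraries. It was 0 to 4 with any 1 library left out, when 12.6% to 13.9% of all genes separated, and 7 with accumbens 2 and dorsal striatum 3 both left out, when 18.3% of all genes separated. The median biological coefficient of variation between replicates was 0.245 for the members, against a fitted trend of 0.249 at their abundance. edgeR draws each gene's value toward that trend, so the closeness of the 2 medians is partly built in. Of the members 73.9% lay below their trend, against 64.5% of all tested genes.

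**Figure D1:**
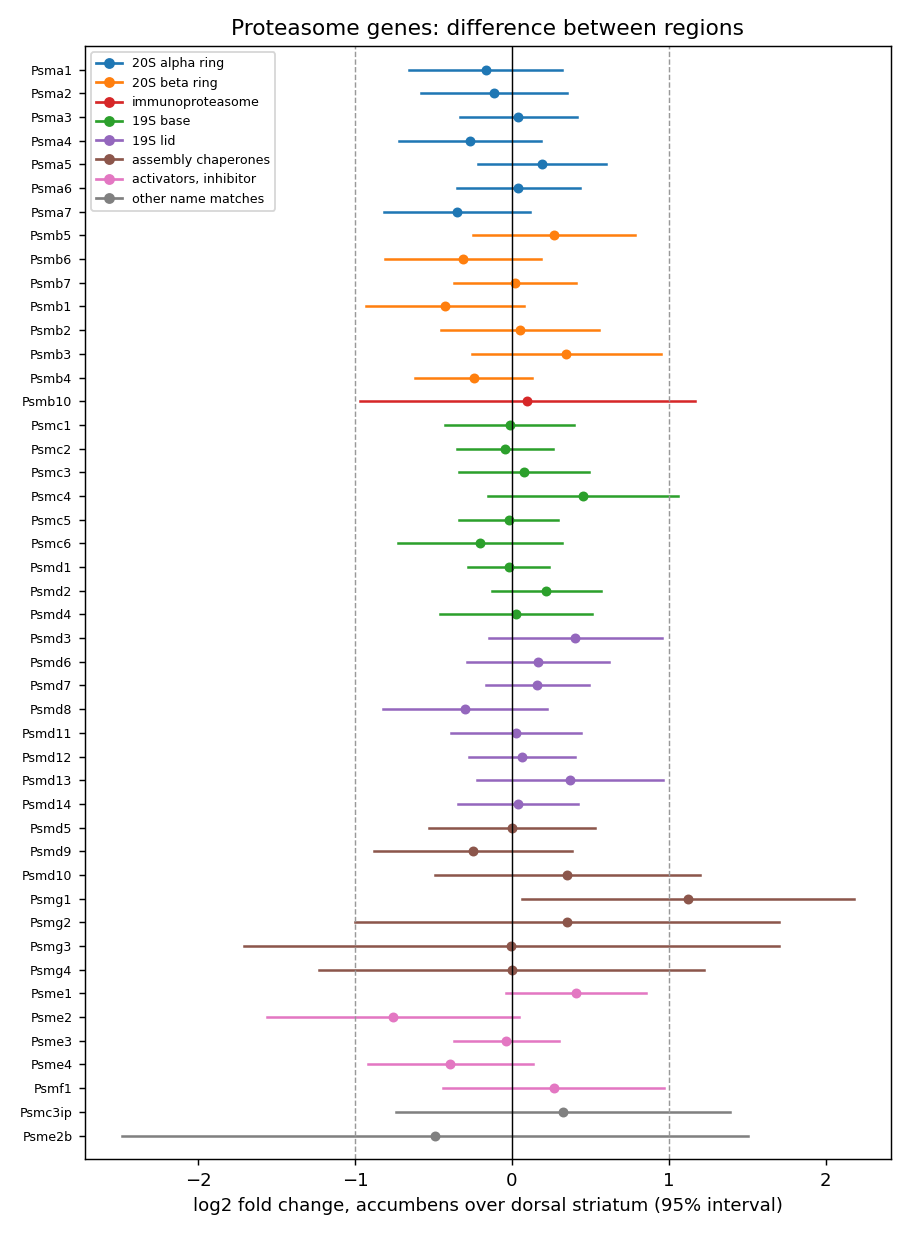
Log2 fold change of each of the 46 tested proteasome genes (x axis, accumbens over dorsal striatum), with points for the edgeR estimate, lines for its 95% interval, colour for the role, and dashed lines at a 2-fold difference. Intervals of all 14 constitutive core subunits lie between the dashed lines, the estimate of Psmg1 (1.12) lies farthest from 0, and the interval of Psme2b is the widest.

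The promoters of the members were searched for sequence elements known from other work on proteasome genes, as a feature that the choice of members did not use. RefSeq promoter windows on GRCm38.p6, from 250 bases before to 50 bases after the gene start, were found for 42 of the 50 members. Letters were searched on both strands, and each element was counted on its own, also where it overlapped another. Counts are of genes, and a gene with several windows counted once if any of them held the element. The antioxidant response core TGACNNNGC is the kind of site bound by NFE2L1, which raises proteasome genes when proteasomes are blocked. It was in 6 of 42 members (14.3%), against 17% of tested genes with a window and 14% of all genes with a window. These 6 genes were Psmb5, Psmb6, Psmc6, Psmd9, Psmd12 and Psme4. CCAAT was in 15 of 42 (35.7%), against 43.3% of tested genes and 41.1% of all genes with a window. The palindrome bound by nuclear respiratory factor 1 was in 2 of 42 (4.76%, Psma2 and Psmg1), against 2.46% of tested genes and 1.07% of all genes with a window. CCGGAAG, the core letters bound by ETS-family factors, was in 15 of 42 (35.7%), against 19.9% of tested genes and 9.93% of all genes with a window. Among the 25 core and cap subunits with a window, 10 (40%) held CCGGAAG and 4 (16%) held TGACNNNGC. A match is a run of letters and not a measured binding site.

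The TGACNNNGC runs upstream of 3 members are printed as the gene strand reads, 5′ to 3′, with the match in capitals. Of the 6 genes with a match, only these 3 had one lying before the RefSeq gene start with 8 flanking bases on each side. They are an active-site subunit, a cap motor subunit and an assembly chaperone. The matches begin 47, 227 and 31 bases before the RefSeq gene start, in the order printed. In Psmc6 the match is on the opposite strand.
Psmb5 (chr14:54618026-54618050, gene on the minus strand): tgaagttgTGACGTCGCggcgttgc
Psmc6 (chr14:45329589-45329613, gene on the plus strand): agccagtaGCTAAGTCAggcattgc
Psmd9 (chr5:123228151-123228175, gene on the plus strand): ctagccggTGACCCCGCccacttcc

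The CCGGAAG runs of 5 of the 15 members that held this element are printed in the same way, as examples. They begin 28, 26, 17, 45 and 69 bases before the RefSeq gene start, in the order printed. Upstream runs not printed began 24 (Psmc2) to 132 (Psma6) bases before it, so the printed distances do not describe all members. In Psmc1, Psmd2 and Psmd12 the match is on the opposite strand and reads CTTCCGG.
Psmc1 (chr12:100110166-100110188, gene on the plus strand): tggatgcaCTTCCGGcggtggcg
Psmd2 (chr16:20651618-20651640, gene on the plus strand): gcagggcgCTTCCGGtctggagg
Psmd12 (chr11:107479503-107479525, gene on the plus strand): gcgggcgaCTTCCGGtgcgagtg
Psmd6 (chr14:14120976-14120998, gene on the minus strand): agacgcgaCCGGAAGtcagactg
Psmg1 (chr16:95991015-95991037, gene on the minus strand): gcggcggaCCGGAAGctcttagg

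The 7 alpha subunits of the core, Psma1 to Psma7, form the gated outer rings, and none was called. Their summed level was 407 ± 52.8 CPM in accumbens and 435 ± 55.7 CPM in dorsal striatum (SD, n = 4 libraries per region). Fold changes ran from -0.35 for Psma7 to 0.19 for Psma5 on the log2 scale, 3 above 0 and 4 below, and all 7 intervals lay within 2-fold. Psma6 had 89.7, 94.3, 54.1 and 73.4 CPM in accumbens 1 to 4, against 79.05, 71.6, 78.7 and 73.3 CPM in dorsal striatum 1 to 4. The accumbens libraries alone spanned the whole range, 54.1 to 94.3 CPM, while the dorsal striatum libraries sat together inside it. Psma7 averaged 68.1 ± 20.1 CPM in accumbens and 86.6 ± 18.04 CPM in dorsal striatum, a log2 fold change of -0.35 ± 0.22 (SE; edgeR adjusted p = 0.515), and -0.50 (without accumbens 1) to -0.20 (without accumbens 2) with 1 library left out. Psma3, Psma4 and Psma5 share 21.3%, 16.7% and 39.8% of their 75-base windows with transcripts of other genes, mostly predicted copies, so part of their reads may have gone uncounted.

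The beta rings hold the active sites, and the 3 constitutive ones were measured in every library. Psmb5, the chymotrypsin-like subunit (chr14:54614119-54618022, minus strand, whose promoter run is printed above), had 33.6, 32.8, 28.8 and 31.05 CPM in accumbens 1 to 4, against 30.2, 31.9, 17.2 and 25.4 CPM in dorsal striatum 1 to 4. The accumbens libraries were close together, and only dorsal striatum 3 and 4 lay below all of them. Its log2 fold change was 0.27 ± 0.25 (95% interval -0.25 to 0.79, adjusted p = 0.693), and with 1 library left out it ran from 0.11 (without dorsal striatum 3) to 0.38 (without dorsal striatum 2). Psmb5 shares 40% of its windows with a predicted copy and a microRNA gene, so its level is uncertain.

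Psmb6, the caspase-like subunit, had 39.3, 23.1, 41.4 and 31.3 CPM in accumbens 1 to 4, against 49.2, 43.9, 33.1 and 41.2 CPM in dorsal striatum 1 to 4. The 2 highest libraries were from dorsal striatum and the lowest was accumbens 2, but the regions overlapped, with a log2 fold change of -0.31 ± 0.24 (95% interval -0.81 to 0.19, adjusted p = 0.617). With single libraries left out it ran from -0.42 (without accumbens 3) to -0.17 (without accumbens 2). Psmb7, the trypsin-like subunit, had 127, 78.3, 111 and 133 CPM in accumbens 1 to 4, against 137, 94.7, 95.04 and 117 CPM in dorsal striatum 1 to 4. Its means were 112 ± 24.6 CPM in accumbens and 111 ± 20.1 CPM in dorsal striatum, and its log2 fold change was 0.021 ± 0.19 (95% interval -0.37 to 0.41). Summed, the 3 active-site subunits stood at 178 ± 30.1 CPM in accumbens and 179 ± 29.5 CPM in dorsal striatum.

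The non-catalytic beta subunits Psmb1 to Psmb4 complete the ring, and 0 of 4 were called. Psmb1 had the lowest fold change of the core, with 60.6, 29.6, 46.5 and 54.5 CPM in accumbens 1 to 4, against 58.1, 50.5, 59.9 and 88 CPM in dorsal striatum 1 to 4. Accumbens 2 was the lowest library and dorsal striatum 4 the highest, and the log2 fold change was -0.43 ± 0.24 (95% interval -0.93 to 0.077, adjusted p = 0.443), and -0.56 (without accumbens 1) to -0.23 (without dorsal striatum 4) with 1 library left out. Psmb3 had the highest fold change of the core, 0.35 ± 0.28, and 0.091 without accumbens 2, whose 43.2 CPM stood apart from 24.2 to 24.5 CPM in the other accumbens libraries. Psmb4 averaged 61.8 ± 9.33 CPM in accumbens and 73.2 ± 6.42 CPM in dorsal striatum and Psmb2 52.3 ± 14.1 CPM in accumbens and 50.4 ± 12.4 CPM in dorsal striatum. Over all 14 core subunits the summed level was 776 ± 85.5 CPM in accumbens and 824 ± 95.5 CPM in dorsal striatum, a ratio of 0.941, and all 14 intervals lay within 2-fold.

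The 6 ATPases Psmc1 to Psmc6 form the motor at the foot of the cap, and none was called. Their summed level was 474 ± 53.9 CPM in accumbens and 473 ± 8.82 CPM in dorsal striatum. Psmc5 had 159, 132, 170.2 and 134 CPM in accumbens 1 to 4, against 133, 144, 148 and 179 CPM in dorsal striatum 1 to 4. Its highest library was dorsal striatum 4 and its lowest accumbens 2, with a log2 fold change of -0.021 ± 0.15 (95% interval -0.34 to 0.29). Psmc1 had 130.4, 73.02, 119 and 94.5 CPM in accumbens 1 to 4, against 116, 100.1, 126 and 79.1 CPM in dorsal striatum 1 to 4, and its log2 fold change was -0.014 ± 0.20 (95% interval -0.43 to 0.40). Both regions covered nearly the same range for Psmc1. Psmc4 had 36.7, 18.9, 37.9 and 40.2 CPM in accumbens 1 to 4, against 26.3, 28.9, 14.8 and 27.5 CPM in dorsal striatum 1 to 4. In 3 accumbens libraries it was above all dorsal striatum libraries, while accumbens 2 fell among them. Its log2 fold change was 0.45 ± 0.29 (95% interval -0.15 to 1.06, adjusted p = 0.512), or 0.28 (without dorsal striatum 3) to 0.65 (without accumbens 2) with 1 library left out, and it was the only cap subunit whose interval reached beyond 2-fold. Psmc2, Psmc3 and Psmc6 had log2 fold changes of -0.043, 0.076 and -0.20.

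Of the 3 non-ATPase base subunits, Psmd1 and Psmd2 are the scaffolds that receive ubiquitin-like domains, and Psmd4 is a ubiquitin receptor. Psmd1 was the steadiest member across libraries, with 231, 207, 214 and 229 CPM in accumbens 1 to 4, against 212, 229, 239 and 213 CPM in dorsal striatum 1 to 4. Its highest library was 1.15 times its lowest, the coefficient of variation over 8 libraries was 5.196%, and its log2 fold change was -0.020 ± 0.12 (95% interval -0.28 to 0.24). Psmd2 averaged 89.1 ± 12.1 CPM in accumbens and 76.5 ± 7.31 CPM in dorsal striatum, and Psmd4 39.8 ± 9.17 CPM in accumbens and 39.2 ± 7.47 CPM in dorsal striatum.

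The 8 lid subunits include Psmd14, the enzyme that cuts the ubiquitin chain off the substrate. Lid levels summed to 454 ± 16.7 CPM in accumbens and 420.5 ± 27.7 CPM in dorsal striatum, and 7 of 8 fold changes were above 0 with a median of 0.11, but 0 of 8 were called and all 8 intervals lay within 2-fold. The summed level was 448, 432, 468 and 465 CPM in accumbens 1 to 4, against 448, 419, 432 and 383 CPM in dorsal striatum 1 to 4. Accumbens 3 and 4 were the highest libraries and dorsal striatum 4 the lowest, and the regions overlapped. Psmd14 averaged 71.8 ± 13.6 CPM in accumbens and 69.95 ± 7.47 CPM in dorsal striatum, a log2 fold change of 0.038 ± 0.18. The largest were Psmd3, with 48.3 ± 20.3 CPM in accumbens and 36.5 ± 5.34 CPM in dorsal striatum (log2 0.41 ± 0.26, adjusted p = 0.532, 0.084 without accumbens 3), and Psmd13, with 22.1 ± 3.09 CPM in accumbens and 17.1 ± 4.67 CPM in dorsal striatum (log2 0.37 ± 0.28, adjusted p = 0.616). Psmd13 shares 13.99% of its windows with Sirt3, which overlaps it on the opposite strand. Psmd12 varied little, with a coefficient of variation of 7.53% over 8 libraries, and Psmd8 was the 1 lid gene below 0, at -0.30 ± 0.25. Psmd6, Psmd7 and Psmd11 had log2 fold changes of 0.16, 0.16 and 0.027. Over all 17 base and lid subunits the sum was 1276 ± 78.2 CPM in accumbens and 1232 ± 49.9 CPM in dorsal striatum, a ratio of 1.04.

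**Figure D2:**
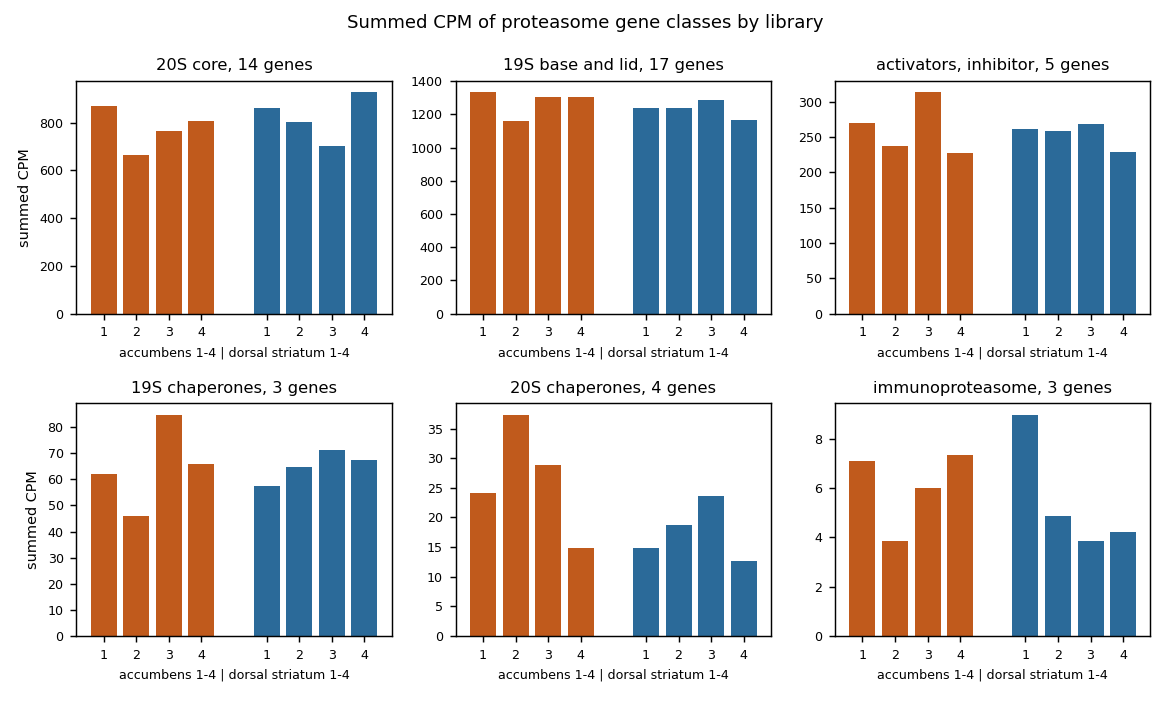
Summed CPM (y axis, from 0) of 6 classes of proteasome genes, with 1 bar per library and accumbens 1 to 4 to the left of dorsal striatum 1 to 4. Bars of the 2 regions overlap in height in every class, and the core assembly chaperones span 14.8 to 37.4 CPM in accumbens and 12.6 to 23.7 CPM in dorsal striatum.

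Activators compete with the cap for the ends of the core. Psme1 and Psme2 together form PA28 alpha-beta, the interferon-inducible activator linked to antigen processing. Psme1 (chr14:55578123-55581529, plus strand) had 96.98, 68.4, 122 and 70.1 CPM in accumbens 1 to 4, against 70.3, 81.5, 67.5 and 49.9 CPM in dorsal striatum 1 to 4. Accumbens 1 and 3 were the highest libraries and the other accumbens libraries lay among the dorsal striatum libraries, with a log2 fold change of 0.41 ± 0.21 (95% interval -0.038 to 0.86, adjusted p = 0.395), and 0.23 without accumbens 3. Psme2 (chr14:55587441-55591113, minus strand) had 14.7, 8.36, 8.69 and 10.8 CPM in accumbens 1 to 4, against 11.1, 13.7, 33.2 and 14.2 CPM in dorsal striatum 1 to 4. Dorsal striatum 3 stood apart from the 7 other libraries. The log2 fold change was -0.76 ± 0.38 (95% interval -1.56 to 0.047, adjusted p = 0.374), and -0.29 without dorsal striatum 3. The 2 partners thus differed in sign, neither was called, and the difference between them was not tested. Psme2 shares 51.7% of its windows with Psme2b, so reads that align to both would be lost, and Psme2b itself had 4 to 15 reads per library.

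Psme3, the nuclear activator PA28 gamma, had 97.8, 113, 138 and 94.7 CPM in accumbens 1 to 4, against 127, 111, 105 and 111 CPM in dorsal striatum 1 to 4. The regions overlapped, and accumbens held the highest and the lowest library, with a log2 fold change of -0.034 ± 0.16 (95% interval -0.37 to 0.30). Psme4, PA200, a large activator linked to histone breakdown and DNA repair, had 25.03, 36.4, 18.6 and 26.6 CPM in accumbens 1 to 4, against 32.3, 29.6, 39.01 and 39.02 CPM in dorsal striatum 1 to 4. Accumbens 2 reached into the dorsal striatum range and the other accumbens libraries lay below it. Its log2 fold change was -0.39 ± 0.25 (95% interval -0.92 to 0.13, adjusted p = 0.515), and -0.58 without accumbens 2 or -0.25 without accumbens 3. Psmf1, the inhibitor PI31, had 35.1, 9.98, 26.8 and 25.3 CPM in accumbens 1 to 4, against 20.5, 22.6, 23.2 and 14.4 CPM in dorsal striatum 1 to 4. Its lowest and highest libraries were both from accumbens, and the log2 fold change was 0.27 ± 0.33 (95% interval -0.44 to 0.97), and 0.038 (without accumbens 1) to 0.52 (without accumbens 2) with 1 library left out.

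The core assembles with the help of 4 chaperones, Psmg1 to Psmg4. Psmg1, the partner of Psmg2 in the first chaperone pair (chr16:95979933-95990960, minus strand), had 8.61, 21.3, 19.4 and 7.87 CPM in accumbens 1 to 4, against 5.56, 6.89, 11.9 and 2.07 CPM in dorsal striatum 1 to 4. Accumbens 2 and 3 were the highest libraries, and accumbens 1 and 4 lay below dorsal striatum 3. Its log2 fold change of 1.12 ± 0.50 was the largest of all members (95% interval 0.065 to 2.18, edgeR unadjusted p = 0.0388, adjusted p = 0.298). With 1 library left out it ran from 0.82 to 1.56. Psmg2 averaged 5.02 ± 3.66 CPM in accumbens and 3.93 ± 1.89 CPM in dorsal striatum, Psmg4 4.48 ± 2.47 CPM in accumbens and 4.48 ± 0.627 CPM in dorsal striatum, and their intervals, like that of Psmg3, reached beyond 2-fold. Psmg3 had 3.32, 0.341, 3.87 and 2.24 CPM in accumbens 1 to 4, against 3.905, 1.803, 1.11 and 2.96 CPM in dorsal striatum 1 to 4 (log2 fold change -0.0026 ± 0.81, 95% interval -1.70 to 1.70). The 4 chaperones summed to 24.04, 37.4, 28.8 and 14.8 CPM in accumbens 1 to 4, against 14.8, 18.8, 23.7 and 12.6 CPM in dorsal striatum 1 to 4. The ratio of the means, 1.503, was the largest of the core, cap, activator and chaperone classes, and the regions overlapped. The cap chaperones Psmd5, Psmd9 and Psmd10 summed to 64.7 ± 15.9 CPM in accumbens and 65.2 ± 5.89 CPM in dorsal striatum. Psmd9, whose promoter run is printed above, had 18.03, 11.8, 12.6 and 21.1 CPM in accumbens 1 to 4, against 15.3, 17.5, 22.5 and 20.1 CPM in dorsal striatum 1 to 4. In Psmd5, accumbens 3 stood apart at 59.8 CPM from 29.2 to 32.03 CPM in the other accumbens libraries.

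**Figure D3:**
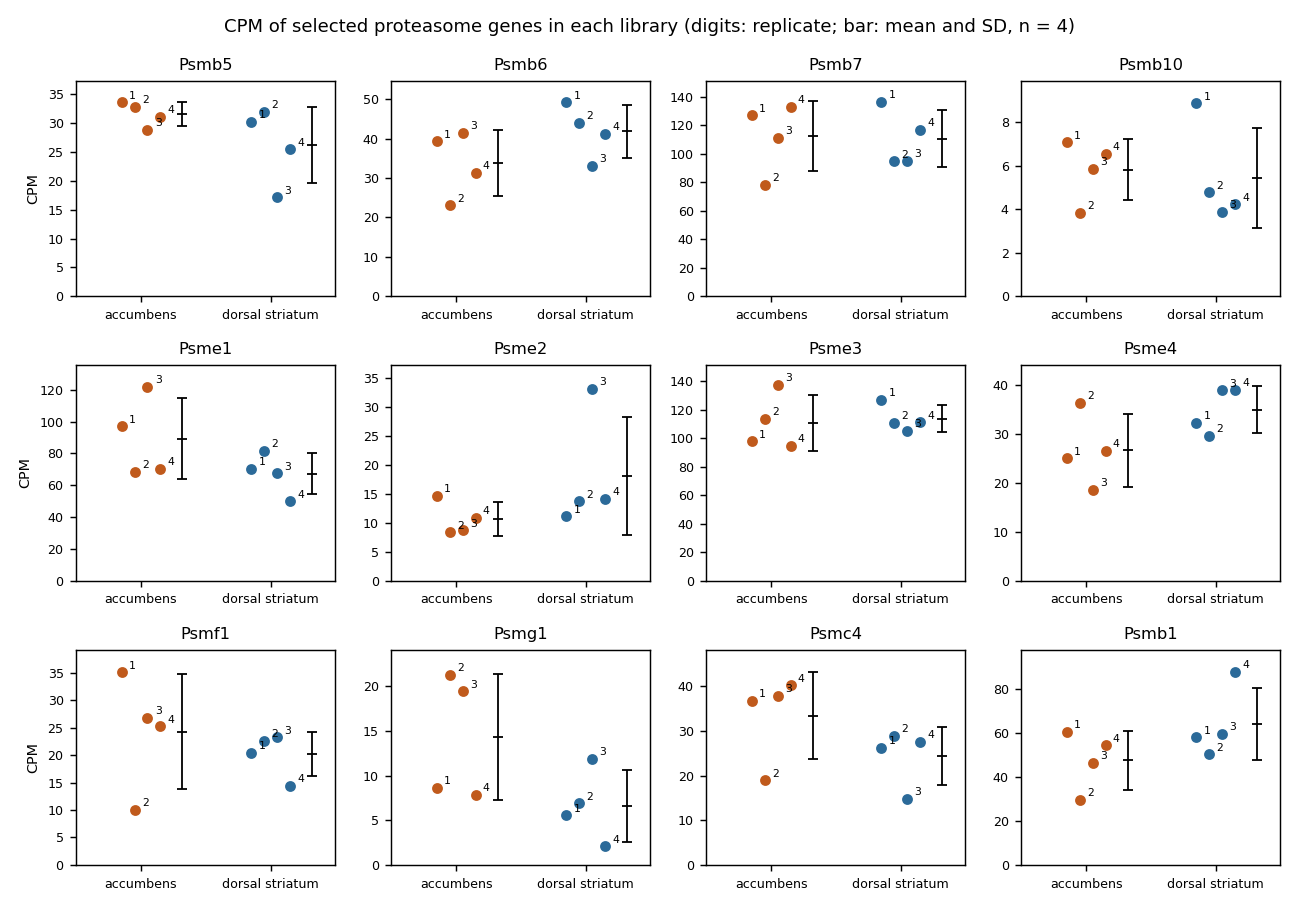
CPM (y axis, from 0) of 12 proteasome genes in each library, 1 panel per gene, with accumbens to the left of dorsal striatum, digits for the replicate number and black bars for the mean and SD (n = 4). The regions overlap in every panel, and single libraries such as dorsal striatum 3 for Psme2 (33.2 CPM) lie away from the rest.

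The immunoproteasome swaps the active-site subunits for Psmb8, Psmb9 and Psmb10, which interferon and immune cells raise. In these libraries 2 of the 3 were at or near 0. Psmb8, which replaces Psmb5, had 0, 0, 2 and 0 reads in accumbens 1 to 4, against 0, 0, 0 and 0 reads in dorsal striatum 1 to 4. It was listed at 0 in 7 of 8 libraries, where up to 3 reads, 0.248 to 0.415 CPM, would be allowed. Psmb9, which replaces Psmb6, had 0, 0, 0 and 10 reads in accumbens 1 to 4, against 1, 1, 0 and 0 reads in dorsal striatum 1 to 4. Accumbens 4 held 10 of its 12 reads. Both genes have an exon that overlaps a neighbour on the opposite strand, Gm20496 for Psmb8 and Tap1 for Psmb9, and whether the counting used strand is not given in the sources used here. Psmb10, which replaces Psmb7, was present throughout, with 7.09, 3.84, 5.85 and 6.54 CPM in accumbens 1 to 4, against 8.87, 4.77, 3.87 and 4.24 CPM in dorsal striatum 1 to 4. Dorsal striatum 1 was its highest library and dorsal striatum 3 the next to lowest, and its log2 fold change of 0.10 ± 0.51 had a wide interval (95% interval -0.97 to 1.17).

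Per kilobase of merged exons, Psmb10 made up 9.38% ± 0.528 of the Psmb10 and Psmb7 pair in accumbens and 8.76% ± 2.09 in dorsal striatum (SD, n = 4 per region). Per kilobase of the principal transcript its share was 4.37% in accumbens and 4.07% in dorsal striatum. For Psmb9 the share of the Psmb9 and Psmb6 pair was 0% in accumbens 1 to 3, 1.34% in accumbens 4, and 0.123%, 0.123%, 0% and 0% in dorsal striatum 1 to 4. Psma8 and Psmb11, the core subunits of testis and thymus, had 3 reads and 0 reads over all 8 libraries.

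Genes that usually rise with the immunoproteasome were read beside it. Of 10 antigen presentation genes, 6 were tested, and 0 were called by edgeR (2 had an unadjusted p under 0.05), with a median log2 fold change of 0.93. B2m, the light chain of class I molecules, had 209, 177, 152 and 243 reads in accumbens 1 to 4, against 53, 74, 62 and 58 reads in dorsal striatum 1 to 4. Every accumbens library lay above every dorsal striatum library, at 16.5 ± 3.66 CPM in accumbens and 7.103 ± 1.34 CPM in dorsal striatum, a log2 fold change of 1.22 ± 0.35 (edgeR adjusted p = 0.0638). B2m was called by DESeq2 (adjusted p = 0.01196) and by limma-voom (adjusted p = 0.0383). With 1 library left out, its edgeR adjusted p ran from 0.063 (without accumbens 3) to 0.173 (without accumbens 4). It was 0.132 with the replicate number as a block and 0.398 with the glial covariate, where the log2 fold change was 1.06. H2-K1, a class I heavy chain, had 54, 0, 36 and 210 reads in accumbens 1 to 4, against 2, 12, 6 and 24 reads in dorsal striatum 1 to 4, with accumbens 4 far above the rest. H2-D1, the other heavy chain tested, lay the other way, with 64, 40, 46 and 54 reads in accumbens 1 to 4, against 44, 63, 115 and 22 reads in dorsal striatum 1 to 4 (log2 -0.79 ± 0.58, edgeR adjusted p = 0.601). Tapbp, which loads peptides on class I molecules, averaged 5.46 ± 1.61 CPM in accumbens and 6.82 ± 3.88 CPM in dorsal striatum (log2 -0.32 ± 0.51). Microglia markers summed to 4.80 to 17.3 CPM in accumbens and 0.985 to 4.35 CPM in dorsal striatum, with C1qa at 0 in all 8 libraries, and endothelial markers to 10.6 to 205 CPM in accumbens and 13.02 to 78.4 CPM in dorsal striatum. Their part in these values was not tested.

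Subunits of one particle did not have equal ribosome-bound RNA per length. Over all 8 libraries, per kilobase of the principal transcript, core subunits ran from 21.95 CPM per kb for Psma3 to 96.2 CPM per kb for Psmb7, a 4.38-fold range with a median of 43 CPM per kb. Cap subunits ran from 9.86 CPM per kb for Psmd13 to 114 CPM per kb for Psmc5, an 11.6-fold range with a median of 29.9 CPM per kb. Among the ATPases, which sit in 1 ring, Psmc6 was lowest at 13.2 CPM per kb. Psmc5 stood at 113 CPM per kb in accumbens and 115 CPM per kb in dorsal striatum, and Psmc6 at 12.3 CPM per kb in accumbens and 14.1 CPM per kb in dorsal striatum. All chaperones lay under the lowest core subunit, with 2.77 to 10.02 CPM per kb for Psmg1 to Psmg4 and 6.69 to 8.54 CPM per kb for Psmd5, Psmd9 and Psmd10. Psmb10 stood at 4.298 CPM per kb. The order depends on the length used. Per kilobase of merged exons, which count every annotated exon, the 3 highest of the tested members were Psmc5, Psma6 and Psmc1 and the 3 lowest were Psmg3, Psme2b and Psmd9, while Psmb7 stood at 32.6 CPM per kb.

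**Figure D4:**
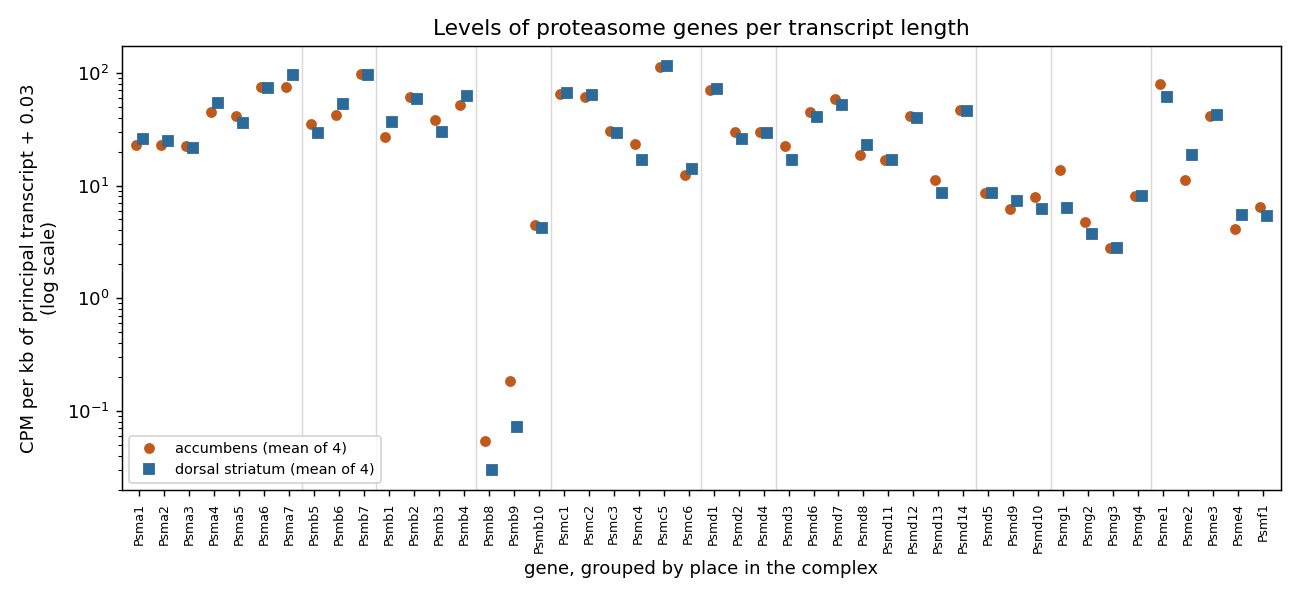
Mean CPM per kb of the principal transcript (log axis, with a small constant added so that 0 can be drawn) of the core, cap, immunoproteasome, chaperone and activator genes, with circles for accumbens and squares for dorsal striatum (n = 4 each; spread not drawn). Psmb8 and Psmb9 lie far below all other genes, Psmc5 is highest at 113 CPM per kb in accumbens and 115 CPM per kb in dorsal striatum, and the assembly chaperones lie below the core subunits.

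In single libraries the members deviated in ways that region did not follow, and core and cap did not always move together. All members summed to 2578, 2153, 2509 and 2436 CPM in accumbens 1 to 4, against 2456, 2396, 2362 and 2409 CPM in dorsal striatum 1 to 4. The lowest and the highest sums were both from accumbens. Relative to each gene's mean over libraries, the median member deviated by 0.17, -0.18, 0.044 and 0.013 log2 units in accumbens 1 to 4, and by 0.028, 0.020, -0.060 and 0.0032 in dorsal striatum 1 to 4. The median over all tested genes deviated by -0.0047 (accumbens 2) to 0.035 (accumbens 1). The core subunits alone deviated by -0.32 in accumbens 2, the cap subunits by -0.11. The glial marker level (mean centred log2 CPM) was 1.06, -0.05, 0.20 and 0.14 in accumbens 1 to 4, against -0.37, 0.40, -0.54 and -0.84 in dorsal striatum 1 to 4. In accumbens 1, where it was highest, the core deviated by 0.19 and the cap by 0.090. In dorsal striatum 4, where it was lowest, the core deviated by 0.17 and the cap by -0.21. With the glial marker level as a covariate 0 members were called, and the median log2 fold change of the members was -0.05. The level was mostly higher in accumbens, so the covariate shares part of the contrast between regions. Of all tested genes, 37.9% had an interval within 2-fold with it, against 48.6% without. The level averages astrocyte, oligodendrocyte and microglia markers, some of which had too few reads to be tested.

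Genes that carry other names were counted from 7 lists. They cover ubiquitin and E1 genes, conjugating enzymes, proteasome partners, control by NFE2L1, antigen presentation, the chaperonin and the COP9 signalosome. The chaperonin and signalosome lists are other large assemblies and not proteasome partners. Over the 7 lists 84 genes were tested and 1 was called, against 3.72% of all tested genes. Ubqln4, a shuttle that carries tagged proteins to the cap, fell to 78.1 ± 18.7 CPM in accumbens, against 125 ± 6.59 CPM in dorsal striatum (SD, n = 4 libraries each). Its log2 fold change was -0.67 ± 0.18 (edgeR adjusted p = 0.0398). The adjusted p was 0.0250 without accumbens 3, 0.056 without accumbens 1, 0.099 without accumbens 2, 0.116 without accumbens 4, between 0.065 (dorsal striatum 4) and 0.116 (dorsal striatum 1) without any 1 dorsal striatum library, and 0.087 with the glial covariate, so 7 of the 8 single removals ended the call. The log2 fold change was -0.55 to -0.80 over the single removals and -0.83 with the glial covariate. Its relative Ubqln2, mutated in an inherited motor neuron disease, averaged 377 ± 41 CPM in accumbens and 546 ± 122 CPM in dorsal striatum (log2 -0.54 ± 0.15, edgeR adjusted p = 0.0541), just outside the threshold. Dorsal striatum 4 held 715 CPM of Ubqln2, against 447 to 554 CPM in the other dorsal striatum libraries. Its edgeR adjusted p ran from 0.035 (without dorsal striatum 2) to 0.184 (without dorsal striatum 4, log2 -0.38) over the single removals. With the glial covariate it was 0.605 (log2 -0.29). Ubqln1, the third ubiquilin of the list, averaged 134 ± 16.9 CPM in accumbens and 133 ± 14.1 CPM in dorsal striatum (log2 0.0077 ± 0.15, adjusted p = 0.992). They are 3 of 17 tested proteasome partners (of 18 listed), whose median log2 fold change was -0.021.

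In the other lists 0 genes were called by edgeR. Their genes with an unadjusted p under 0.05 were 2 in antigen presentation and 1 among the conjugating enzymes, and of them DESeq2 and limma-voom called B2m alone. Of the ubiquitin and E1 genes 5 were tested, with a median log2 fold change of 0.13, and Uba1, the main ubiquitin-activating enzyme, averaged 366 ± 56.9 CPM in accumbens and 317 ± 31.9 CPM in dorsal striatum. All 9 genes around NFE2L1 were tested, with a median of 0.14. Nfe2l1 itself averaged 399.6 ± 79.1 CPM in accumbens and 363 ± 28.5 CPM in dorsal striatum, and Vcp, the ATPase that helps release it from the endoplasmic reticulum, 181 ± 13.7 CPM in accumbens and 194 ± 26.7 CPM in dorsal striatum. Of 33 ubiquitin-conjugating enzymes 30 were tested, with a median of -0.10, and Ube2d3 averaged 232 ± 10.03 CPM in accumbens and 238 ± 25.02 CPM in dorsal striatum. Other large assemblies gave like values: the 8 chaperonin subunits had a median of 0.0022, with 8 of 8 intervals within 2-fold, and the 9 subunits of the COP9 signalosome, a relative of the lid, a median of -0.049, with 9 of 9 within 2-fold.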

How the data were processed

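Each library's deposited table holds whole-number read counts by gene symbol, without normalization. The submitters' processing notes name STAR 2.0.0e, HTSeq and the mm10 build. Annotation and strand setting of the counting are not given in the sources used here. Reads without a gene, 35.5% to 40.6% of accumbens and 27.1% to 33.8% of dorsal striatum libraries, were left out. Reads with several alignments were not counted, so genes with near-copies read low. No 2 libraries agreed within sampling noise.

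Libraries were grouped by title. Regions were compared with edgeR 4.0.16 (R 4.3.3; quasi-likelihood F test, TMM, filterByExpr minimum count 10) over 12467 genes, with Benjamini-Hochberg adjustment over all of them and a threshold of 0.05. CPM uses TMM-scaled library sizes. Lengths and gene coordinates are from GENCODE M21 (GRCm38, shared with mm10), 1-based, and 96.0% of tested genes have a length. Promoter windows and distances to the gene start are from RefSeq, whose starts can differ from those of GENCODE. For Psmc1, Psmd9 and Psmd12 the printed run lies inside the gene as GENCODE places it, and for Psmd6 it lies partly inside. The script was tested on simulated data. Members were described in every library if they were active-site or immunoproteasome subunits, activators, the 5 with the largest fold change averaging at least 5 CPM, or the 3 highest and 3 lowest per merged exon length; Psmd1, Psmd12 and other subunits were picked after their values were seen. The members and lists were chosen with earlier results of these data known. Alternatives were RLE and upper-quartile normalization, 2 other low-count filters, DESeq2 1.42.0, limma-voom (limma 3.58.1), a replicate block, a glial marker covariate, thinning to 7466970 counts, removal of length and GC trends, each library left out, and accumbens 2 with dorsal striatum 3 left out. One gene that the naming rule took from a pathway list is not reported here.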

Additional observations from a re-analysis of the deposited data

Results flagged for a closer look

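In 9 of 92 sets of 4 libraries (46 tested genes in 2 regions), 1 library stood apart from the other 3 of its region by Dixon's test. The nominal rate of this test is about 1 in 20, for independent sets of normally distributed values. The members share the same libraries, and the share over all tested genes was not computed. The count is therefore not a result about the members. In accumbens, Psmb3 was high in accumbens 2 at 43.2 CPM (others 24.2 to 24.5 CPM), Psmc4 low in accumbens 2 at 18.9 CPM (others 36.7 to 40.2 CPM), Psma5 high in accumbens 1 at 58.8 CPM (others 47.8 to 49.0 CPM) and Psmd5 high in accumbens 3 at 59.8 CPM (others 29.2 to 32.03 CPM). In dorsal striatum, Psme2 was high in dorsal striatum 3 at 33.2 CPM (others 11.1 to 14.2 CPM). In the same library Psmb4 was low at 63.6 CPM (others 75.8 to 77.4 CPM), and so was Psmd8 at 22.1 CPM (others 38.6 to 40.3 CPM). Psma3 was high in dorsal striatum 4 at 70.1 CPM (others 57.96 to 59.4 CPM), and Psmd2 low in it at 65.6 CPM (others 79.4 to 81.3 CPM).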

How the results depend on the processing

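The count of 0 called proteasome genes held under all 19 alternatives, with the smallest adjusted p between 0.163 (replicate block) and 0.507 (without accumbens 3). DESeq2 gave 1 member no adjusted p. The median log2 fold change of the members ran from -0.05 (glial covariate) to 0.09 (without accumbens 2), within the spread between libraries (SD 0.11). The count of members with an interval within 2-fold was 27 with the glial covariate and 28 to 35 with 1 library left out. The count of members whose regions separate was 0 to 4 with 1 library left out (12.6% to 13.9% of all genes) and 7 with both libraries left out (18.3% of all genes).

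Over all genes the 200 higher and 264 lower calls became 350 and 346 with no filter, 375 and 388 with DESeq2, 72 and 100 with the glial covariate, and 139 to 191 higher and 184 to 236 lower with 1 library left out. Of pathway genes, DESeq2 and limma-voom each called 1 higher (B2m). Upper-quartile scaling, no filter and DESeq2 each called 2 lower (Ubqln2 and Ubqln4), the glial covariate and the removal of both libraries 0, and single removals 0 to 1. Per read with no length, the share of Psmb8 in accumbens was 0.137% and that of Psmb10 4.91% in accumbens and 4.58% in dorsal striatum. Per principal transcript Psmb10 was 4.37% in accumbens and 4.07% in dorsal striatum.

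The sign of the fold change differed from the reported one in at least 1 alternative for 24 of the 46 members, none of them called. Among members not listed next, Psmb3 was -0.069 with both libraries left out, Psmc3ip -0.39 with the glial covariate and Psmg2 -0.27 without accumbens 2. With the glial covariate the log2 fold change was -0.025 for Psmb7, -0.13 for Psmb10, 0.023 for Psme3 and -0.25 for Psmf1. With limma-voom it was 0.061 for Psmc1, 0.058 for Psmc5 and 0.026 for Psmg3. With both libraries left out it was 0.22 for Psmc1, -0.045 for Psma6, 0.023 for Psmc5, 0.12 for Psmg3 and 0.23 for Psme2b. Thinning gave -0.0062 for Psmb7, and RLE and DESeq2 gave 0.0013 for Psmg3. With 1 library left out, values ran from -0.071 to 0.16 for Psmb7, -0.032 to 0.44 for Psmb10, -0.15 to 0.035 for Psme3, -0.14 to 0.12 for Psmc1, -0.065 to 0.19 for Psma6, -0.089 to 0.071 for Psmc5 and -0.32 to 0.36 for Psmg3. The cause was not tested.

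Deviations of same-numbered libraries correlated at 0.079, -0.058, -0.038 and -0.014 for replicates 1 to 4. Only accumbens 1 correlated best with the dorsal striatum library of its own number. Such correlations cannot show whether same-numbered libraries came from the same mice. With the number as a block, 0 members, 194 higher and 238 lower genes were called. Intervals reach past 2-fold for Psmb10, Psmc3ip, Psmc4, Psmd10, Psme2, Psme2b and Psmg1 to Psmg4.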

Other observations

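Accumbens 4 held 10 of the 12 reads of Psmb9, the highest count of H2-K1 (210 reads) and the highest count of Nlrc5 (22 reads), and accumbens 3 held both reads of Psmb8 and the highest count of Tap1 (34 reads). These values were picked after they were seen and no test was run on them.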
